A study of Mus musculus with 6 samples.

Results

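The genes of 9 proteins that are ligands for natural killer (NK) cell receptors, or that inhibit T cells and phagocytes, were followed in TRAMP-C2 cells exposed to platinum drugs. They were Raet1d, Raet1e, Ulbp1, H60b, Pvr, Nectin2, Cd274, Cd276 and Cd47, taken by symbol from the 54446 genes in the count table, and all 9 were found there. TRAMP-C2 is a prostate cancer cell line of male C57BL/6 mice, derived from a tumor driven by a prostate-specific SV40 T antigen transgene. Poly(A) RNA was sequenced from 2 libraries of untreated cells (control), 2 of cells kept for 24 h in 2 µM oxaliplatin and 2 of cells kept for 24 h in 2 µM cisplatin. All 3 groups were the same line in the same medium, which held insulin and an androgen precursor. The sources used here do not say that the 2 libraries of a group came from separate cultures. The p-values rest on a spread between libraries that was estimated over all 6 together, and may not cover the spread between cultures. Since RNA was taken from bulk cultures, fewer cells with a transcript and less transcript per cell cannot be told apart.

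NK cells weigh activating against inhibitory signals on the cells they touch. The activating receptor NKG2D binds MHC class I-like proteins, in the mouse the RAE-1 family (Raet1 genes), the H60 proteins and MULT1 (Ulbp1), which are scarce on most healthy cells and can appear on cells with DNA damage, infection or transformation. PVR (CD155) and nectin-2 (CD112) engage the activating receptor DNAM-1 and the inhibitory receptor TIGIT, and PVR also engages CD96. PD-L1 (Cd274) inhibits T cells through PD-1, B7-H3 (Cd276) is an inhibitory B7 family protein whose receptor is not settled, and CD47 holds back phagocytosis by binding SIRPα. Oxaliplatin and cisplatin both crosslink DNA through platinum. Cisplatin carries ammine and chloride ligands, and oxaliplatin carries a diaminocyclohexane carrier ligand and an oxalate leaving group.

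The Raet1 sequences come first because Raet1d and Raet1e are so alike that their reads are hard to assign. Both genes lie on the plus strand of chromosome 10 in GRCm38, Raet1e (ENSMUSG00000053219) at chr10:22158569-22374139 and Raet1d (ENSMUSG00000078452) at chr10:22360552-22374139, so that the annotated span of Raet1e contains the whole of Raet1d. This comes from 1 of the 4 annotated Raet1e transcripts, Raet1e-202, whose last exon is the last exon of Raet1d. The genes share 363 exon bases, which are 25.2% of the exon bases of Raet1d and 16.8% of those of Raet1e. H60b (ENSMUSG00000075297; chr10:22158586-22288849, plus strand) shares 133 bases with the first exon of Raet1e-204. The coding sequences of Raet1d-201 (750 bases) and Raet1e-201 (756 bases) aligned over 744 bases, of which 713 were identical and 31 differed (95.8% identity), with 165 bases as the longest identical run. Raet1d-201 and H60b-201 matched at 61.6% of aligned coding bases.

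**Figure D1:**
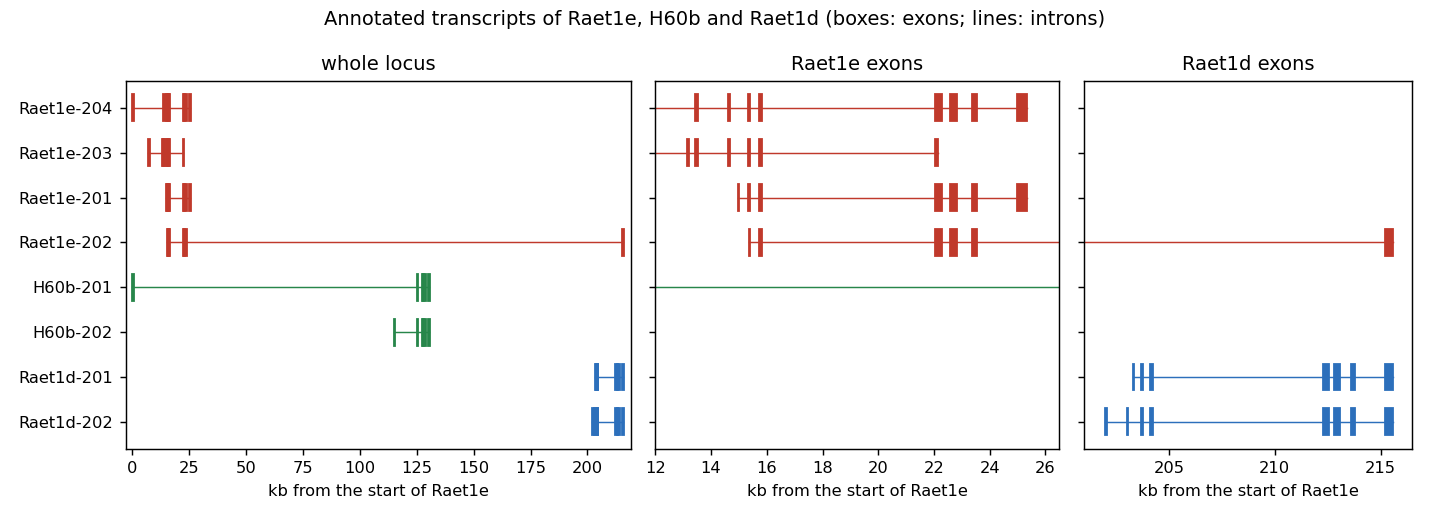
Annotated transcripts of Raet1e (red), H60b (green) and Raet1d (blue), with distance from the start of Raet1e in kb on the x axis, for the whole locus and for the exons of each Raet1 gene; boxes are exons, drawn with a small minimum width so that short ones can be seen, and lines are introns. Raet1e-202 ends in the last exon of Raet1d, at 215 kb, past its other exons at 15.4 to 23.5 kb.

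A stretch of 150 coding bases that both genes have in common (bases 290 to 439 of Raet1d-201 and 296 to 445 of Raet1e-201) is shown because a read within it cannot be placed by its letters.
Raet1d-201 and Raet1e-201, shared stretch: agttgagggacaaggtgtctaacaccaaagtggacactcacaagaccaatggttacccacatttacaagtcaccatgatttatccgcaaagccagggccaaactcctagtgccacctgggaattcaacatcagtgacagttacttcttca

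The stretch of the same length with the most differences (11) is shown because reads from it can separate the genes. Bases 421 to 570 of Raet1d-201 are set against bases 427 to 576 of Raet1e-201, with the differing bases in capitals.
Raet1d-201, most differing stretch: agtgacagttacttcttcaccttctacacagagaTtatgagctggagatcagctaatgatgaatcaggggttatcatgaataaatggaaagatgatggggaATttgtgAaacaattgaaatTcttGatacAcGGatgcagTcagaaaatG
Raet1e-201, most differing stretch: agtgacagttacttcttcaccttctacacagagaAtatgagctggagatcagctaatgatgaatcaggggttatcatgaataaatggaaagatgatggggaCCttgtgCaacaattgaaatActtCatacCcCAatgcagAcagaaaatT

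Promoter windows from RefSeq on GRCm38.p6, from 250 bases before to 50 bases after a transcription start, were given for 7 of the 9 genes in 9 windows. The window of Raet1d (chr10:22361644-22361943, plus strand) and that of the downstream Raet1e start (chr10:22173247-22173546, plus strand) aligned over 298 bases, with 295 identical and 3 different. They are printed because the 2 genes have nearly the same window and gave different values below, and capitals mark the 3 differences and the bases left unpaired at an end.
Raet1d promoter window: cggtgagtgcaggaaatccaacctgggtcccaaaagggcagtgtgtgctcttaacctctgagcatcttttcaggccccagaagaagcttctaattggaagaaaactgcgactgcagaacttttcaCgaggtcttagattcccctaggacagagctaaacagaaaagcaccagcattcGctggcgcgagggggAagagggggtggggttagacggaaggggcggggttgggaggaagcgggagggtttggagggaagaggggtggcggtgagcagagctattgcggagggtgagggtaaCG
Raet1e downstream promoter window: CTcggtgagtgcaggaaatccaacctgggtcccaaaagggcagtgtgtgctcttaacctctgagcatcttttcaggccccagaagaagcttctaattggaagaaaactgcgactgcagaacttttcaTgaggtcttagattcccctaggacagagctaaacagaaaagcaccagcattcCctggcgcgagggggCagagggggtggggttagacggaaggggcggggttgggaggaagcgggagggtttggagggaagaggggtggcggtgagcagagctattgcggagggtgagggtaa

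A set of 4 motifs was searched on both strands, no match overlapping another in the windows shown. Each of these Raet1 windows held GGGCGG, the core of the GC box bound by Sp1, once, and GAANNTTC, a heat shock element core of inverted repeats, once. GGGCGG was in 35.7% and GAANNTTC in 7.86% of 32851 promoter windows of the same length. Neither the AP-1 letters TGACTCA (5.20% of windows) nor the E2F letters TTTNNCGC (5.17%) occurred in any window of the 7 genes.

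Total counts ranged from 21345312 to 24041767 per library. A total of 14956 genes had at least 10 counts in at least 2 libraries and were tested, among them 8 of the 9 ligand genes. The labelled cell type was checked against its markers. Vim, the intermediate filament of mesenchymal cells, had 53688 to 67417 counts, while the epithelial marker Krt5 was at 0 in each library, Epcam had at most 2 counts and Krt8 had 93.0 to 133. Of 12 leukocyte markers, 7 were at 0 in all libraries, including Klrk1, Cd226, Ncr1 and Pdcd1, which encode NKG2D, DNAM-1, NKp46 and PD-1. The 12 summed to 1 to 5 counts in control, 10 to 11 in oxaliplatin and 18 to 32 in cisplatin, most of them from Tigit, the gene of a receptor for PVR, with 4 and 1 counts in control, 10 and 9 in oxaliplatin, and 16 and 29 in cisplatin. The defining leukocyte marker Ptprc (CD45) had 0 or 1 count in each library. The endothelial markers summed to 23 to 26, 50 to 66 and 52 to 73 counts in the same order, nearly all from Kdr. The part of these marker counts in the results was not tested.

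Expressed per length, as RPKM (counts per kilobase of merged exons, scaled to the library total), untreated cells had most Cd47, at 20.0 ± 0.632 (SD, n = 2 here and for each mean below), a level above 81.6% of the tested genes. Raet1e (14.0 ± 0.852), Cd276 (12.5 ± 0.213) and Nectin2 (12.1 ± 0.397) followed, then Raet1d (8.57 ± 0.0169), Ulbp1 (6.29 ± 0.264) and Pvr (3.05 ± 0.149). Cd274 stood at 0.770 ± 0.00861 RPKM, a level above 20.1% of tested genes. In control and cisplatin no 2 neighbours in the order over merged exons overlapped between libraries, and in oxaliplatin the levels of Cd276 and Raet1e overlapped. Raet1d moved from rank 5 in control to rank 3 in cisplatin (12.3 ± 0.281 RPKM), where it exceeded Nectin2 (11.1 ± 0.0228) and Cd276 (10.6 ± 0.394). The lengths matter for some of these levels: with the longest transcript as the length, Pvr came to 6.43 instead of 3.05 RPKM in control, and Raet1e to 19.1 instead of 14.0. The order turned as well, since Nectin2 then stood above Cd276 in control (15.5 against 12.7 RPKM) and above Raet1d in cisplatin (14.2 against 12.5), which left Raet1d at rank 4 there.

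**Figure D2:**
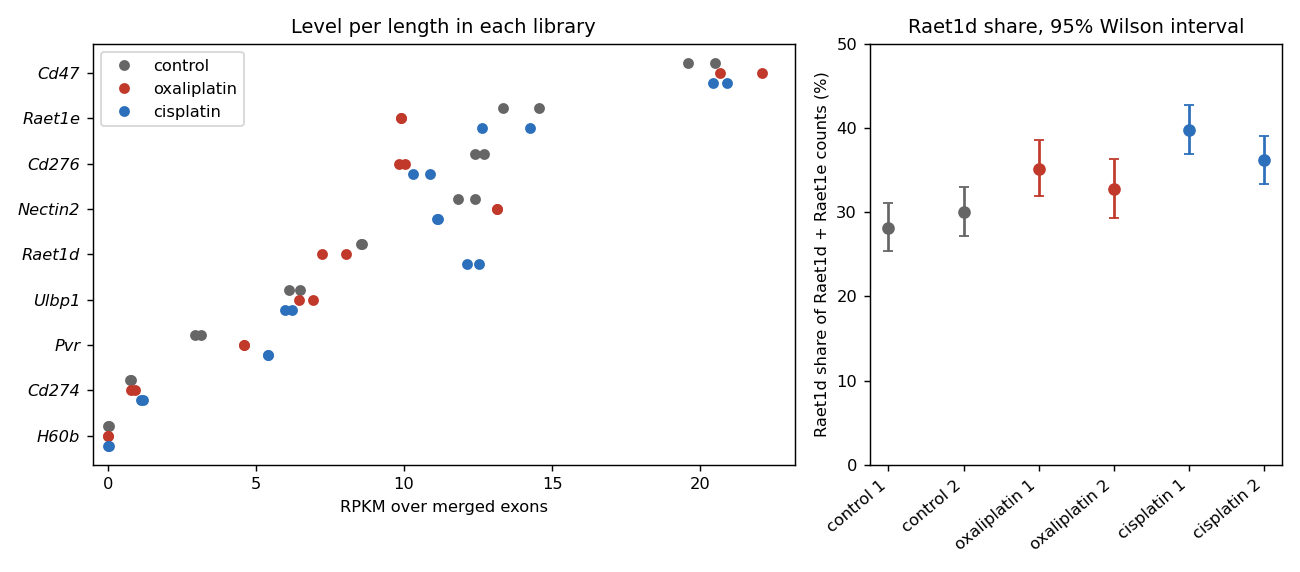
Left, level of the 9 ligand genes in RPKM over merged exons (x axis), 1 point per library, in control (grey), oxaliplatin (red) and cisplatin (blue). Right, Raet1d counts as a percentage of the summed Raet1d and Raet1e counts in each library, with 95% Wilson intervals. Cd47 had the highest level in every library and H60b was at or near 0, and the Raet1d share was 28.2% and 30.0% in control against 39.8% and 36.2% in cisplatin.

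Oxaliplatin raised Pvr and lowered Raet1e and Cd276. Cisplatin raised Pvr and Raet1d, and DESeq2 called none of the 9 lower, though 1 (Cd276) was lower at an unadjusted p under 0.05 and by edgeR. Set against each other at the same dose and time, the drugs differed at Raet1d and Raet1e, both lower with oxaliplatin. These calls were adjusted p-values under 0.05 from DESeq2, Benjamini-Hochberg adjusted over the tested genes that passed its independent filter on mean counts. The filter left 2900, 1740 and 2900 of the 14956 tested genes without an adjusted p with oxaliplatin, with cisplatin and between the drugs. Those genes stay in the DESeq2 shares of all tested genes as not called. With oxaliplatin 3 of 8 tested ligand genes were called, 1 up and 2 down, where 20.2% of all tested genes were called (10.7% up and 9.50% down). With cisplatin 2 of 8 were called, both up, where 28.1% of all genes were called (15.7% up and 12.4% down). Between the drugs 2 of 8 were called, both lower with oxaliplatin, where 19.9% of all genes were (8.62% higher and 11.3% lower). Calls moved with the scaling: with only total counts as the scale, 43.4% instead of 56.0% of all cisplatin calls and 54.3% instead of 43.3% of calls between the drugs were in the higher direction. The 2 oxaliplatin libraries did not overlap the controls for 8 of 8 ligand genes (5 higher and 3 lower), as for 64.8% of all genes (32.1% higher and 32.7% lower). For cisplatin this held for 6 of 8 (4 higher and 2 lower), beside 69.4% of all genes (34.6% and 34.8%), and between the drugs for 7 of 8 (2 higher and 5 lower), beside 68.0% (33.5% and 34.5%). The median log2 fold change of the 8 genes was 0.10 with oxaliplatin, 0.05 with cisplatin and -0.20 between the drugs, beside medians of -0.0029, -0.00083 and -0.0033 over all tested genes. Both drug groups were compared with the same 2 control libraries. The edgeR quasi-likelihood test called 3, 4 and 4 of the 8 genes in the 3 comparisons, where it called 30.9%, 40.9% and 31.9% of all tested genes. By direction edgeR had 1 up and 2 down with oxaliplatin (15.6% and 15.3% of all genes), 3 up and 1 down with cisplatin (20.7% and 20.2%), and 1 higher and 3 lower between the drugs (15.4% and 16.5%).

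**Figure D3:**
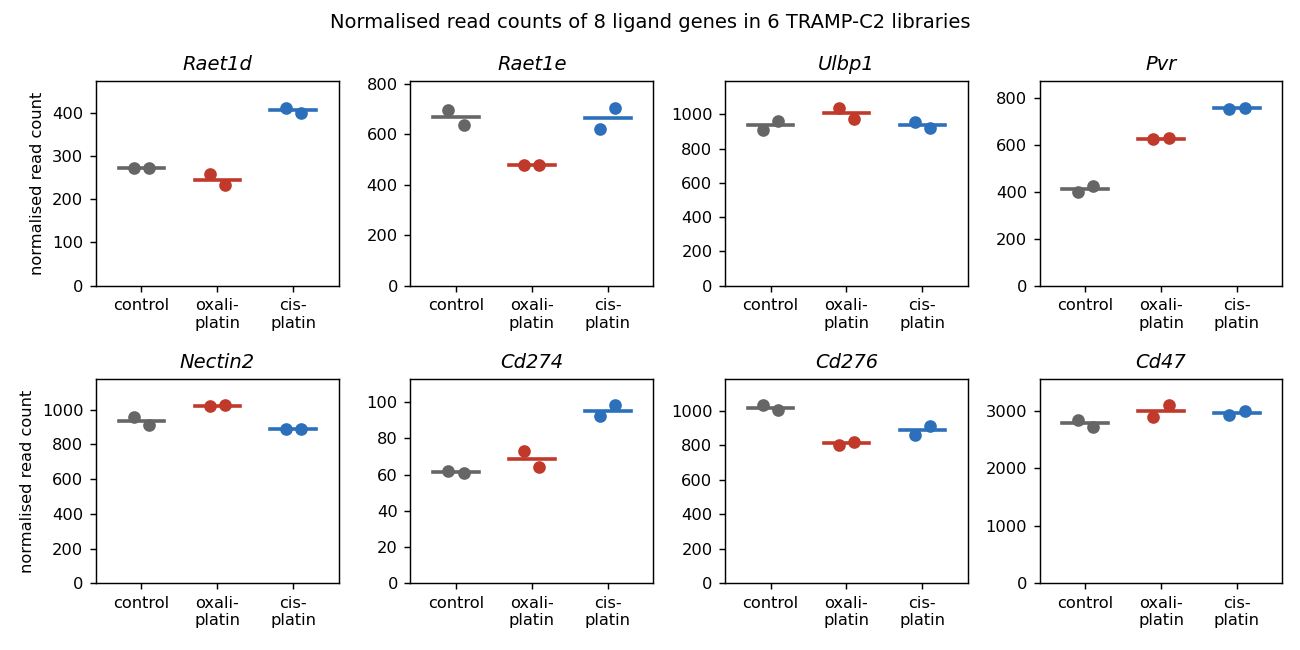
Normalised read counts (y axis, from 0, with a scale of its own in each panel) of the 8 tested ligand genes, 1 point per library and a line at the mean of the 2 libraries of a group. Pvr was higher in all 4 drug-treated libraries than in control, Raet1d was higher in cisplatin alone, and Raet1e was lower in oxaliplatin alone.

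Raet1d, which encodes the RAE-1δ ligand of NKG2D, had normalised read counts (counts divided by the library's size factor) of 273 and 273 in control, 258 and 232 in oxaliplatin, and 412 and 400 in cisplatin. The 2 cisplatin libraries stood above the other 4, and both oxaliplatin libraries lay a little below control. Cisplatin raised it by 0.57 ± 0.16 (log2 fold change ± SE), or 1.49-fold, with an adjusted p of 0.0013 by DESeq2. The oxaliplatin value was -0.15 ± 0.16 on the same scale (adjusted p = 0.55 by DESeq2). The cisplatin call was lost when control replicate 2 (adjusted p = 0.053), cisplatin replicate 1 (0.097) or cisplatin replicate 2 (0.070) was left out, and edgeR gave an adjusted p of 0.00037.

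Raet1e, which encodes RAE-1ε, gave 696 and 636 normalised counts in control, 476 and 478 in oxaliplatin, and 623 and 705 in cisplatin. Here the oxaliplatin libraries were the low ones, and control and cisplatin overlapped. It fell by 0.48 on the log2 scale with oxaliplatin (SE 0.12, DESeq2 adjusted p = 8.0e-04), to 0.716 of the control level. The cisplatin value was -0.0057 ± 0.12, with a 95% Wald interval from -0.24 to 0.23. Without control replicate 1 the oxaliplatin change was -0.41 (adjusted p = 0.077), and without oxaliplatin replicate 1 or 2 the adjusted p was 0.057 and 0.050.

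Because the estimated counts divide reads between the 2 near-identical genes, the share and the sum were also computed. Raet1d took 28.2% (95% Wilson interval 25.4 to 31.1) and 30.0% (27.1 to 33.0) of the summed Raet1d and Raet1e counts in control. In oxaliplatin it took 35.1% (31.9 to 38.5) and 32.7% (29.3 to 36.3), and in cisplatin 39.8% (36.9 to 42.8) and 36.2% (33.4 to 39.1). The shares of both drug groups thus lay above control in each library, with intervals that cover counting error only and not the error of assigning reads. The summed level was 969 and 909 normalised counts in control, 734 and 710 in oxaliplatin, and 1034 and 1105 in cisplatin. All oxaliplatin sums were below control and all cisplatin sums above it. As 1 row in the fit, the pair fell by 0.38 with oxaliplatin (SE 0.098, DESeq2 adjusted p = 9.1e-04), changed by 0.19 ± 0.095 with cisplatin (adjusted p = 0.12) and was lower with oxaliplatin than with cisplatin by a log2 fold change of -0.57 ± 0.097 (adjusted p = 1.4e-07). The fall with oxaliplatin and the difference between the drugs were therefore called without any split of reads, whereas the rise with cisplatin was called for Raet1d and not for the sum.

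Ulbp1 (ENSMUSG00000079685; chr10:7440362-7473638, minus strand), the gene of the NKG2D ligand MULT1, had 909 and 962 normalised counts in control, 1038 and 971 in oxaliplatin, and 956 and 920 in cisplatin. Oxaliplatin values were slightly above control without overlap, and cisplatin values overlapped control. Its log2 fold changes were 0.10 ± 0.094 with oxaliplatin (DESeq2 adjusted p = 0.48) and 0.0038 ± 0.094 with cisplatin (0.98). The 95% intervals, -0.08 to 0.29 and -0.18 to 0.19, leave room for changes of up to 1.22-fold and 1.14-fold. An opposite-strand processed pseudogene, Gm46209, lies within the gene span with no shared exon base, and its counts were 663 and 1818 in control, 222 and 390 in oxaliplatin, and 335 and 140 in cisplatin. The control libraries were far apart, and all 4 treated libraries lay below both. Gm46209 fell with oxaliplatin (log2 fold change -2.03 ± 0.79, DESeq2 adjusted p = 0.041) and with cisplatin (-2.39 ± 0.79, adjusted p = 0.011). Both calls were lost without control replicate 2 (log2 fold changes -1.18 and -1.54, adjusted p = 0.43 and 0.23). The oxaliplatin call was also lost without oxaliplatin replicate 1 (0.36), oxaliplatin replicate 2 (0.085) or cisplatin replicate 2 (0.051) and with the replicate block (0.0997), and the cisplatin call without cisplatin replicate 2 (0.16). With independent filtering turned off, the DESeq2 adjusted p of Gm46209 with oxaliplatin was 0.051, so that call was lost there too. The part of this gene in the Ulbp1 values was not tested.

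H60b was barely detected. Its estimated counts were 0 and 1.01 in control, 0 and 0 in oxaliplatin, and 0 and 1.29 in cisplatin, so it did not pass the filter and was not tested. A floor of 3 counts was set, which is 0.125 to 0.141 CPM in these libraries, and lower levels could not be judged at this depth. The related H60c was at 3.51 counts or less in each library, and Raet1a, Raet1b, Raet1c and H60a were not matched to the table.

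Pvr (ENSMUSG00000040511; chr7:19903578-19921160, minus strand) had the smallest adjusted p of the ligand genes against control under each drug. It had 400 and 427 normalised counts in control, 627 and 629 in oxaliplatin, and 755 and 760 in cisplatin. The 3 groups were fully separated, with control lowest and cisplatin highest. Oxaliplatin raised it 1.52-fold (log2 fold change 0.60 ± 0.12, DESeq2 adjusted p = 2.6e-06) and cisplatin 1.83-fold (0.87 ± 0.11, adjusted p = 6.8e-13). Both calls held in each of the 14 alternative fits, with adjusted p-values of at most 0.0080 and 2.4e-05. The leukocyte gene Tigit, whose product binds PVR, had counts in the same order of groups (given above), and its part in the result was not tested.

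Nectin2 (ENSMUSG00000062300; chr7:19716644-19750483, minus strand), whose product shares receptors with PVR, moved less. Its normalised counts were 958 and 911 in control, 1023 and 1024 in oxaliplatin, and 889 and 890 in cisplatin. Oxaliplatin libraries were above control and cisplatin libraries below it, without overlap, but neither difference was called. The log2 fold changes were 0.13 ± 0.090 (DESeq2 adjusted p = 0.31) and -0.07 ± 0.091 (0.61). An antisense gene that shares 135 exon bases with it, Gm20512, had at most 1.41 counts in any library.

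Cd274 (ENSMUSG00000016496; chr19:29367455-29388095, plus strand), which encodes PD-L1, was the lowest of the tested ligand genes. It had 62.3 and 61.1 normalised counts in control, 73.3 and 64.5 in oxaliplatin, and 92.2 and 98.2 in cisplatin. Both cisplatin libraries lay above the other 4. The cisplatin difference was 0.63 ± 0.31 on the log2 scale, or 1.54-fold with a 95% interval from 1.01 to 2.35, and was not called by DESeq2 (adjusted p = 0.11) but was called by edgeR (adjusted p = 0.013). The oxaliplatin difference was 0.16 ± 0.32 (adjusted p = 0.78 by DESeq2), and its interval, -0.46 to 0.78, includes the cisplatin value. An antisense gene, AC119228.1, shares 511 exon bases with Cd274 and was not matched to a row of the table.

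Cd276 (ENSMUSG00000035914; chr9:58524298-58555437, minus strand), the B7-H3 gene, gave 1029 and 1001 normalised counts in control, 803 and 820 in oxaliplatin, and 861 and 911 in cisplatin. All 4 treated libraries were below both controls. With oxaliplatin it fell to 0.80 of control (log2 fold change -0.32 ± 0.093, DESeq2 adjusted p = 0.0036). The cisplatin value was -0.20 ± 0.093 (adjusted p = 0.093), which passed the threshold with edgeR (0.016) and when only total counts were used for scaling (0.029). The oxaliplatin call did not survive leaving out a library: the adjusted p was 0.11 without control replicate 1, 0.064 without control replicate 2, 0.15 without oxaliplatin replicate 1 and 0.10 without oxaliplatin replicate 2. An overlapping gene on the opposite strand, Gm10657, shares 416 exon bases with Cd276 and had at most 4 counts in any library.

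Cd47 (ENSMUSG00000055447; chr16:49800533-49915010, plus strand), the most abundant of the 9, stood at 2846 and 2713 normalised counts in control, 2894 and 3094 in oxaliplatin, and 2923 and 3001 in cisplatin. All 4 treated libraries were above both controls, and neither difference was called. The log2 fold changes were 0.11 ± 0.062 with oxaliplatin (DESeq2 adjusted p = 0.22) and 0.09 ± 0.062 with cisplatin (0.28), with upper 95% bounds of 1.17-fold and 1.16-fold.

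**Figure D4:**
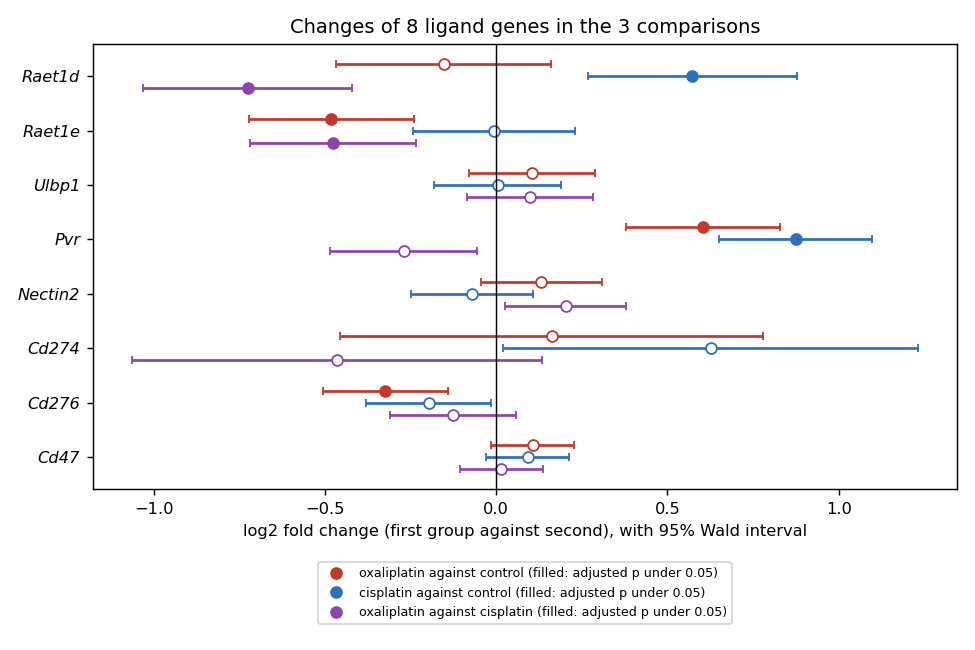
Log2 fold changes (x axis) of the 8 tested ligand genes with 95% Wald intervals, for oxaliplatin against control (red), cisplatin against control (blue) and oxaliplatin against cisplatin (purple); filled points had a DESeq2 adjusted p under 0.05. Pvr was filled under both drugs, and Raet1d and Raet1e were filled between the drugs, at -0.73 and -0.48.

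Oxaliplatin and cisplatin, which share the platinum center and differ in its ligands, were compared directly as 1 pair at 2 µM and 24 h. Raet1d was 0.605 of its cisplatin level with oxaliplatin (log2 fold change -0.73 ± 0.16, DESeq2 adjusted p = 4.4e-05), and this call held in all 14 alternative fits. Raet1e was 0.719 of its cisplatin level (-0.48 ± 0.12, adjusted p = 9.9e-04), a call lost without oxaliplatin replicate 1 (0.065), oxaliplatin replicate 2 (0.056) or cisplatin replicate 2 (0.14). For the other 6 genes no difference was called. Pvr came closest, at -0.27 ± 0.11 (95% interval -0.49 to -0.06, DESeq2 adjusted p = 0.055), with oxaliplatin lower in each library, and edgeR called it (0.0063). Nectin2 was 0.20 ± 0.090 higher with oxaliplatin (0.03 to 0.38, DESeq2 adjusted p = 0.085), which edgeR (0.015) and total count scaling (0.037) called. The interval was wide for Cd274, from -1.06 to 0.13, and narrow for Cd47, from -0.11 to 0.14. For Ulbp1 it ran from -0.08 to 0.28 and for Cd276 from -0.31 to 0.06.

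Listed genes around these ligands (other ligands of NK and checkpoint receptors, enzymes and chaperones that shed or hold the proteins at the surface, regulators, and adhesion or death receptors) were followed beside them. Of 73 such genes 69 were matched to the table and 54 were tested. Among the 54, DESeq2 gave no adjusted p for 6 with oxaliplatin, 5 with cisplatin and 6 between the drugs. Oxaliplatin raised 11 and lowered 8 of the 54 (35.2% called), where 10.7% of all tested genes were called up and 9.50% down. Cisplatin raised 20 and lowered 3 (42.6% called), where 15.7% of all genes were called up and 12.4% down. With only total counts for scaling, the cisplatin split became 17 raised and 6 lowered. Between the drugs 5 were higher and 16 lower with oxaliplatin, beside 8.62% and 11.3% of all genes. The median log2 fold changes of the 54 were 0.03, 0.22 and -0.15, beside the medians near 0 over all genes. All the gene lists were chosen with earlier results of these data known. The part of that choice in the shares called here and for each list below was not tested.

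Of the 6 tested ligands of other NK receptors 1 was called with oxaliplatin and 2 with cisplatin. Of the 7 tested checkpoint ligands 1 and 2 were called, but 5 and 4 had no DESeq2 adjusted p and could not be. Over all tested genes 20.2% and 28.1% were called. The edgeR test called 1 and 3 of the 7, all higher, where it called 30.9% and 40.9% of all tested genes. Ceacam1, among the 7, had 6 and 6 counts in control, 2 and 7 in oxaliplatin, and 27 and 21 in cisplatin. It passed the filter only through the cisplatin libraries, so a higher value with cisplatin was built into its being tested. Of the 3 tested relatives of Pvr, Nectin1 and Nectin3 were not called with either drug by DESeq2. Nectin4 had no DESeq2 adjusted p and could not be called. It had 8 and 5 counts in control, 6 and 7 in oxaliplatin, and 16 and 13 in cisplatin. Nectin4 thus passed the filter only through the cisplatin libraries. Its log2 fold changes were -0.05 ± 0.93 with oxaliplatin and 1.14 ± 0.88 with cisplatin. None of the 3 was called by edgeR, and 0 had an unadjusted DESeq2 p under 0.05. The log2 fold changes were -0.0088 ± 0.21 and 0.21 ± 0.20 for Nectin1 and 0.15 ± 0.093 and 0.09 ± 0.093 for Nectin3. Cadm1, a ligand of CRTAM, had 8 counts or less. Among the ligands of other NK receptors, Cdh1, whose product E-cadherin binds the inhibitory receptor KLRG1, rose 1.44-fold with cisplatin (log2 fold change 0.53 ± 0.14, DESeq2 adjusted p = 8.6e-04) and stood at 0.02 ± 0.14 with oxaliplatin. The cisplatin call on Cdh1 was lost without control replicate 1 (0.066) or cisplatin replicate 2 (0.079). Bag6, which encodes a chaperone described as a ligand of NKp30 in humans, fell by 0.14 with oxaliplatin (SE 0.052, DESeq2 adjusted p = 0.030) and rose by 0.18 ± 0.052 with cisplatin (0.0032). The oxaliplatin call on Bag6 was lost with the replicate block (0.093), in the fit of the 4 libraries compared (0.064) and without any 1 of 5 libraries, reaching 0.42 without control replicate 1, while the cisplatin call was lost without control replicate 2 (0.14), cisplatin replicate 1 (0.053) or cisplatin replicate 2 (0.091). H2-T23, which encodes the Qa-1 ligand of NKG2A, had 0.09 ± 0.18 and 0.23 ± 0.18 and was not called.

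Of 15 other checkpoint ligand genes 7 were tested, and the rest had too few counts, with Pdcd1lg2 (PD-L2), Cd86 and Btnl2 at 0 in each library. Lgals3, the gene of galectin-3, a ligand of LAG-3, rose with both drugs. Its normalised counts were 3247 and 3109 in control, 4970 and 5188 in oxaliplatin, and 4525 and 4314 in cisplatin, with log2 fold changes of 0.68 ± 0.055 (DESeq2 adjusted p = 1.4e-32) and 0.48 ± 0.055 (3.0e-16). Lgals9, the gene of galectin-9, a ligand of TIM-3, rose with cisplatin by 0.27 ± 0.062 (DESeq2 adjusted p = 1.1e-04) and stood at -0.04 ± 0.063 with oxaliplatin. The Lgals9 call was lost without cisplatin replicate 1 (0.060). Vsir, which encodes VISTA, had 28.8 to 38.4 normalised counts and log2 fold changes of -0.21 ± 0.47 and -0.10 ± 0.47.

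Of the 3 listed phagocytosis genes beside Cd47, Calr was called with oxaliplatin and Cd24a with cisplatin. That is 1 of 3 with each drug, beside 20.2% and 28.1% of all tested genes. Calreticulin at the cell surface is a signal for phagocytosis, and its transcript fell by 0.39 with oxaliplatin (SE 0.029, DESeq2 adjusted p = 3.9e-39) and stood at -0.03 ± 0.029 with cisplatin (0.41). The difference between the drugs was -0.35 ± 0.029 (DESeq2 adjusted p = 9.8e-33). Cd24a, the gene of a ligand of Siglec family receptors, rose with cisplatin by 0.16 ± 0.056 (DESeq2 adjusted p = 0.013), a call that was lost under total count scaling (0.10), with the replicate block (0.060) and without any 1 of 5 libraries, control replicate 2 being the exception (highest 0.21, without control replicate 1). Qpctl, which encodes the enzyme that modifies CD47 for SIRPα binding, was not called, at 0.07 ± 0.16 and 0.14 ± 0.16.

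Among 10 genes for shedding or surface control of these ligands, 1 rose and 3 fell with oxaliplatin, and 2 rose and 2 fell with cisplatin, so that 4 of 10 were called with each drug beside 20.2% and 28.1% of all tested genes. Mgat5, an N-glycan branching enzyme, fell by 0.67 ± 0.16 and 0.75 ± 0.16 (DESeq2 adjusted p = 1.8e-04 and 1.9e-05), although the oxaliplatin call was lost without oxaliplatin replicate 2 (0.071). Mmp14, a membrane protease, fell by 0.28 with each drug, with SE 0.037 each (DESeq2 adjusted p = 3.6e-13 and 8.7e-13). Spop, a ubiquitin ligase adaptor that acts on PD-L1, rose by 0.16 ± 0.049 with oxaliplatin and 0.53 ± 0.048 with cisplatin (DESeq2 adjusted p = 0.0050 and 1.9e-25). The Spop call with oxaliplatin was lost without control replicate 1 (0.053), control replicate 2 (0.092), oxaliplatin replicate 1 (0.090) or oxaliplatin replicate 2 (0.25).

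Of the 20 listed regulators of stress ligands and PD-L1, 8 rose and 2 fell with oxaliplatin, where 10.7% of all tested genes were called up and 9.50% down. With cisplatin 11 rose and none fell by DESeq2, where 15.7% of all genes were called up and 12.4% down, and 0 were lower at an unadjusted p under 0.05 or by edgeR. Their median log2 fold changes were 0.19 and 0.25, and the list as a whole was not tested. Myc rose 1.51-fold and 1.99-fold (log2 fold changes 0.59 ± 0.080 and 0.99 ± 0.079, DESeq2 adjusted p = 5.8e-12 and 2.4e-33). Hsf1, the gene of the heat shock transcription factor, rose by 0.60 ± 0.071 and 0.38 ± 0.072 (2.7e-15 and 1.5e-06). Rela, an NF-κB subunit gene, rose with cisplatin by 0.41 ± 0.065 (DESeq2 adjusted p = 4.0e-09) and stood at 0.10 ± 0.065 with oxaliplatin (0.26).

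Icam1 encodes a protein bound by the LFA-1 integrin of NK and T cells. Among the named listed genes with a DESeq2 adjusted p, Icam1 had the largest change under both drugs. Nectin4 and Ceacam1, at few counts and without an adjusted p, had larger log2 fold changes with cisplatin, 1.14 ± 0.88 and 1.98 ± 0.87. It rose from 277 and 304 normalised counts in control to 560 and 539 in oxaliplatin and 637 and 633 in cisplatin, by 0.92 ± 0.13 and 1.13 ± 0.13 on the log2 scale (DESeq2 adjusted p = 6.6e-11 and 1.6e-16). The treated libraries did not overlap control. Vcam1, the gene of a ligand of the VLA-4 integrin, rose with cisplatin by 0.48 ± 0.047 (DESeq2 adjusted p = 4.7e-22) and stood at 0.08 ± 0.048 with oxaliplatin. Tnfrsf1a, a TNF receptor gene, fell by 0.28 ± 0.061 and 0.36 ± 0.062 (7.2e-05 and 8.2e-08), the first of which was lost without oxaliplatin replicate 1 (0.055).

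**Figure D5:**
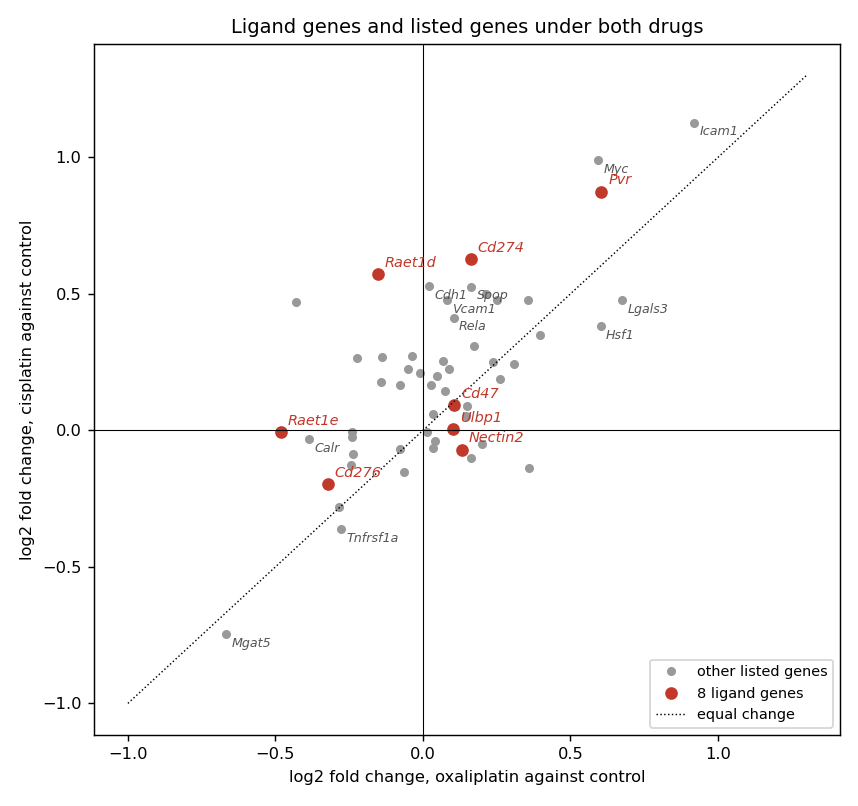
Log2 fold change against control with oxaliplatin (x axis) and cisplatin (y axis) for the 8 tested ligand genes (red) and the 48 other listed genes that had an adjusted p in each comparison (grey, with named genes past 0.3 labelled); the dotted line marks equal change. Both axes use the same 2 control libraries. Pvr lies with Icam1 and Myc among genes raised by both drugs, Raet1d at -0.15 and 0.57, and Raet1e at -0.48 and -0.0057.

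The genes whose profile over the 6 libraries was most like that of each ligand gene were sought among 10731 genes with a mean of at least 100 normalised counts, by the Euclidean distance of their centered log2 values. For Raet1d these were Lrrn4cl (distance 0.10) and Paip2b (0.14), and for Raet1e they were Ociad2 (0.08) and Mvd (0.11). Pvr was most like Hbegf (0.10), the gene of an EGF receptor ligand, and Pcolce2 (0.10). The nearest for Ulbp1 were Asb8 and Dcun1d2, for Nectin2 Snx9 and Pcolce, for Cd276 Sec24c and Mbtps1, and for Cd47 Fnta and Ska1, at distances from 0.02 to 0.05. These distances describe likeness over 6 libraries, and Cd274 and H60b were below the mean required. Each is the smallest found among many genes. The values were not scaled, so genes that vary little lie close together, and distances of different ligand genes cannot be compared.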

How the data were processed

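Per the labels, the kit used for the poly(A) libraries keeps strand information, and the strand setting of the counting is not given in the sources used here. The authors deposited expected counts per gene as RSEM estimates, without normalization, in 1 table with 6 sample columns. The submitters' processing notes name STAR 2.5.3a, RSEM 1.3.0 and GRCm38.p6, and the methods of the study describe another pipeline for in vitro RNA-seq, so the exact steps remain unsettled. RSEM divides reads that fit several genes among them, which bears on Raet1d and Raet1e.

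Version-stripped gene identifiers were matched to GENCODE M21 symbols, and 54409 of 54446 matched. Expected counts were rounded to whole numbers, and each gene reaching 10 counts in 2 or more libraries entered a fit with DESeq2 1.42.0 in R 4.3.3 on all 6 libraries, with group as the only term. Log2 fold changes were not shrunken, and intervals are 95% Wald intervals. DESeq2 p-values were Benjamini-Hochberg adjusted within each comparison over the genes that passed its independent filter on mean counts. Those of edgeR were adjusted over all tested genes. Alternatives were the quasi-likelihood test of edgeR 4.0.16, other size factors, other filters, a replicate block, the 4 libraries compared alone, and leaving out each library. RPKM was computed from the deposited counts, library totals and merged exon lengths.

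The members and gene lists were chosen with earlier results of these data known. Named listed genes are the 3 of each list with the smallest adjusted p over both drug comparisons, and for each ligand gene with a mean of at least 100 counts the 2 most alike genes. Genes shown because they overlap a ligand gene or encode its receptor are named too.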

Additional observations from a re-analysis of the deposited data

How the results depend on the processing

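Groups of 2 libraries do not allow a check for an outlying library, and a fit without 1 library assumes that the lone library of its group varies like the others. Cd274, at 61 to 98 normalised counts, had the least depth of the tested ligand genes, and no adjusted p was given for it under some alternatives. The cause of the differences between fits was not tested.

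edgeR called 4 ligand genes with cisplatin and 4 between the drugs, against 2 and 2 by DESeq2, and 4618, 6112 and 4773 of all genes with oxaliplatin, with cisplatin and between the drugs, against 3028, 4203 and 2977. With total counts as the only scaling, 43.4% instead of 56.0% of all calls with cisplatin and 54.3% instead of 43.3% of those between the drugs were in the higher direction, and the median of all genes moved by less than 0.1.

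Replicate numbers are shared by the groups, but same-numbered libraries did not deviate together (correlations of their deviations over 10731 genes of 0.07, -0.05 and -0.19), so the numbers were not taken to pair samples. With the replicate block the ligand genes called were 3, 2 and 2, as in the fit without it, and 13, 20 and 17 listed genes were called against 19, 23 and 21. Over all genes the block left 1958 calls with oxaliplatin, 2833 with cisplatin and 1861 between the drugs, against 3028, 4203 and 2977 without it.

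Leaving out 1 library gave 1 to 3 ligand genes called with oxaliplatin, 1 to 2 with cisplatin and 1 to 2 between the drugs. For the listed genes the counts were 9 to 14 with oxaliplatin, 15 to 20 with cisplatin and 12 to 20 between the drugs, and for all genes 1213 to 2159, 2089 to 3021 and 1184 to 2453.

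Sign changes arose for log2 fold changes near 0. For Ulbp1 with cisplatin the value was -0.0022 with edgeR, -0.0022 with TMM factors and -0.0442 with total count scaling, and for Mmp14 between the drugs it was 0.000875, 0.000885 and 0.0284. Summing both Raet1 genes gave 0.188 with cisplatin in place of the Raet1e value. Without 1 library at a time, the values with cisplatin ran from -0.098 to 0.0832 for Raet1e and from -0.037 to 0.045 for Ulbp1. With oxaliplatin they ran from -0.122 to 0.117 for Nectin1, -0.0741 to 0.108 for Cdh1, -0.00511 to 0.0637 for Cd24a and -0.024 to 0.162 for Qpctl. Between the drugs they ran from -0.034 to 0.0623 for Cd47, -0.166 to 0.0197 for Qpctl, -0.0134 to 0.00121 for Mmp14, -0.012 to 0.161 for Mgat5 and -0.195 to 1.08 for the pseudogene Gm46209. None of these comparisons was called in any fit.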
